A study of Mus musculus with 4 samples.

Results

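Transcripts of 30 genes that build the apical polarity complexes and the tight junction of epithelial cells were followed across 4 expression arrays of mouse small intestinal epithelium. The members were chosen by gene name. They cover the PAR, Crumbs and Scribble complexes, the ZO proteins and other tight junction parts, with the claudins left out. All 30 were found among the 18193 genes that had a probe set of their own on the array, Inadl under its newer symbol Patj. For each, the probe set named for that gene alone with the highest mean over the 4 arrays stands for the gene. The knockout group consisted of 2 arrays from AP-1B-/- mice and the heterozygous group of 2 arrays from AP-1B+/- mice. All animals were C57BL/6J adults aged 10 weeks, healthy and kept specific pathogen-free. The epithelium was released from the dissected small intestine by 20 min in 30 mM EDTA on ice and picked under a stereomicroscope. The heterozygous mice, which carry 1 disrupted copy of the gene, served as the control, and no wild-type array was analysed here. The deleted region is not described in the labels. Nor is it stated that the 4 arrays came from separate mice, so the p-values reflect the variation among these RNA samples, part of which may be technical. Sex-linked signals, given below, differed between the 2 arrays of each label.

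Epithelial cells divide their surface into an apical and a basolateral domain, and the tight junction forms the border. The PAR complex and the Crumbs complex act on the apical side, and the Scribble complex acts on the basolateral side. Each side holds the other back, in part through phosphorylation, on the apical side by atypical protein kinase C. ZO scaffolds tie the transmembrane junction proteins to actin and seal the paracellular space. AP-1B is an epithelial clathrin adaptor that carries receptors and adhesion proteins to the basolateral side, and Ap1m2 encodes its medium subunit, so the polarity machinery is a natural set to follow in its absence.

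Values are deposited signals on a linear scale in multiples of the array median, which lay between 0.996 and 0.998 on the 4 arrays. The 75th percentile of all 45037 probe sets was 5.57 on knockout 1, 4.27 on knockout 2, 4.13 on heterozygous 1 and 5.54 on heterozygous 2. Ap1m2 itself had a signal of 2.49 on knockout 1 and 22.3 on knockout 2, against 19.9 on heterozygous 1 and 4.33 on heterozygous 2. The Ap1m2 signal thus went against the labels of knockout 2 and heterozygous 2. Whether these arrays were exchanged was not tested, so a difference by label may not be a difference by genotype, and "knockout" and "heterozygous" mean the arrays so labelled throughout. Xist, the female-specific transcript of the inactive X chromosome, divided the arrays by replicate number and not by label, with signals of 0.070 and 60.1 on knockout 1 and 2, against 0.349 and 30.3 on heterozygous 1 and 2. Eif2s3y, on the Y chromosome, ran the other way, with 24.1 and 0.051 against 12.1 and 0.256 in the same order. The 2 arrays of each label thus differed in sex and were not repeats of the same animal's RNA. The enterocyte markers Fabp1 and Apoa1 were bright on every array, Fabp1 at 910.4 and 582 on knockout arrays, against 707 and 770 on heterozygous arrays, and Apoa1 at 758 and 633 against 782 and 733. Of the 10 listed enterocyte markers, 9 had a probe set of their own, and all 9 passed the filter on dim probe sets. They were not even over the arrays. Lct, encoding lactase, had 3.97 and 237 on knockout arrays, against 312 and 82.3 on heterozygous arrays, and Anpep, encoding aminopeptidase N, had 46.7 and 190.3 against 203 and 137. Precision is limited by having only 4 arrays.

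None of the 30 genes passed the test between the labelled groups. In a limma fit across the 22519 probe sets that passed the filter, all 30 members were tested, 0 passed an adjusted p of 0.05 (Benjamini-Hochberg over all probe sets, adjusted p = 0.999868 for each member), and 0% of all tested probe sets did (percent called, 0 of 22519). With 1 knockout array left out, 240 probe sets passed without knockout 2 and 24 without knockout 1, but the spread then came from the heterozygous pair alone and the lone array was assumed to vary like it. At an unadjusted p under 0.05 by limma there was 1 member, Pard6g, where 0.755% of all tested probe sets lay below that value. Log2 differences, knockout minus heterozygous on the log2(signal + 0.321) scale, were positive for 15 members and negative for 15. Their median was 0.00064, beside 0.0055 over all tested probe sets. They lay between −1.07 and 0.54, with standard errors of 0.44 to 0.67, and 29 of 30 were within 1.5-fold, as were 89.1% of all tested probe sets. In 28 members the signals of the groups overlapped. No member had both knockout arrays above both heterozygous arrays, an order seen in 6.56% of tested probe sets. Cgnl1 and Pard6g had both knockout arrays below both heterozygous arrays, an order seen in 10.7% of tested probe sets. In material of mixed cells, fewer cells of a type and less RNA per cell cannot be told apart.

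**Figure D1:**
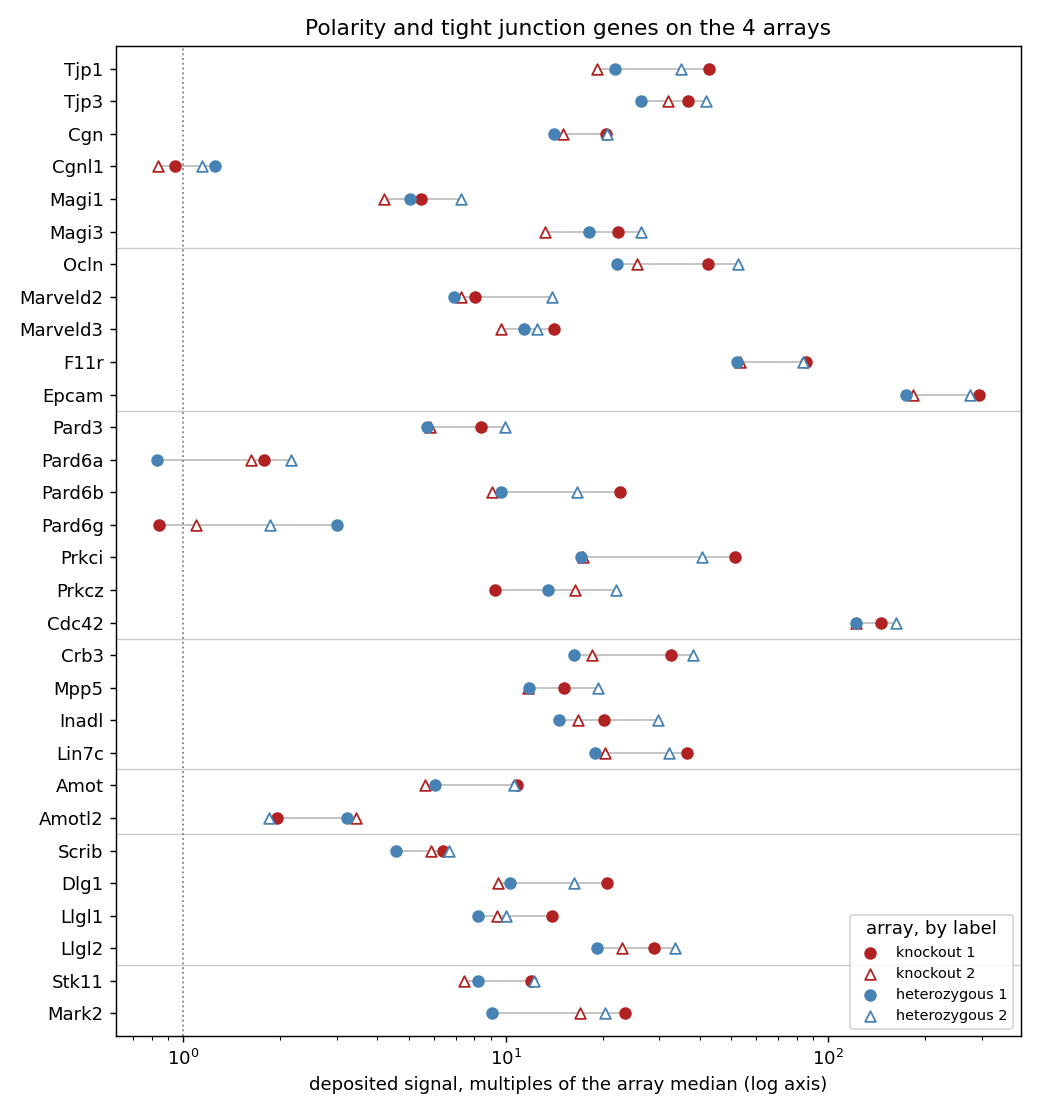
Deposited signal of the 30 genes (x axis, multiples of the array median, log scale) on the 4 arrays, grouped from top to bottom as junction scaffolds, transmembrane proteins, PAR complex, Crumbs complex, angiomotins, Scribble complex and LKB1 with MARK2. Red marks are knockout and blue marks heterozygous arrays, circles replicate 1 and triangles replicate 2. In most rows the red circle and the blue triangle lie together on the right, and red and blue overlap in 28 of 30 rows. Levels of different genes rest on different probes and are not comparable.

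The plaque scaffolds came first in order of role, with values listed as replicate 1 then replicate 2 of each group. Tjp1, which encodes ZO-1, the scaffold that links occludin and claudins to actin, had signals of 42.8 and 19.2 on the knockout arrays, against 21.9 and 35.1 on the heterozygous arrays. The 2 knockout arrays were the highest and the lowest of the 4, so the log2 difference of 0.050 ± 0.60 (SE, limma) sat inside their spread. Tjp3, encoding the related ZO-3, had 36.9 and 31.9 on knockout arrays, against 26.3 and 41.7 on heterozygous arrays. Cgn encodes cingulin, a cytoplasmic plaque protein that binds ZO proteins, and had 20.5 and 15.1 on knockout arrays, against 14.1 and 20.6 on heterozygous arrays. For both genes the heterozygous arrays held the highest and the lowest signal.

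A further 3 scaffolds had lower means on the knockout arrays, and none passed the test. Cgnl1 encodes paracingulin, a relative of cingulin at tight and adherens junctions, and had 0.940 and 0.838 on knockout arrays, against 1.25 and 1.14 on heterozygous arrays. Its groups did not overlap, but the probe set lay near the array median, and the log2 difference was −0.33 ± 0.45 (SE). Averaged over all its probe sets, the others too dim to be tested, the difference was 0.22, of the opposite sign. Magi1 and Magi3 encode inverted membrane-associated guanylate kinases, scaffolds with several PDZ domains. Magi1 had 5.48 and 4.20 on knockout arrays, against 5.06 and 7.25 on heterozygous arrays, and Magi3 had 22.3 and 13.3 against 18.1 and 26.4 in the same order. Both had knockout 2 lowest and heterozygous 2 highest. The other kept probe set of Magi1 and both others of Magi3 had log2 differences of the same sign, between −0.40 and −0.18.

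Among the transmembrane proteins the within-label gaps were as wide. Ocln, which encodes occludin, had 42.6 and 25.5 on knockout arrays, against 22.2 and 52.5 on heterozygous arrays. Its group means, 34.05 ± 12.03 on knockout arrays and 37.4 ± 21.4 on heterozygous arrays (SD, n = 2 each), differed by less than the SD of either. Marveld2 encodes tricellulin, which seals the points where 3 cells meet, and had 8.07 and 7.27 on knockout arrays, against 6.90 and 13.9 on heterozygous arrays. Here heterozygous 2 stood apart from the other 3 arrays. Marveld3, the remaining member of the occludin family, had 14.1 and 9.69 on knockout arrays, against 11.4 and 12.6 on heterozygous arrays, with a log2 difference of −0.033 ± 0.53 (SE).

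F11r encodes junctional adhesion molecule A, an immunoglobulin-type adhesion protein that binds the PDZ domains of PAR3 and ZO-1. It had 85.4 and 53.3 on knockout arrays, against 52.3 and 84.0 on heterozygous arrays. Epcam encodes an epithelial adhesion molecule that stabilises claudins and whose loss causes a congenital enteropathy in humans, and had 295 and 184 on knockout arrays, against 174 and 275 on heterozygous arrays. For both genes knockout 1 and heterozygous 2 lay close together, as did knockout 2 and heterozygous 1. The group means of Epcam were 239 ± 78.7 on knockout arrays and 225 ± 71.3 on heterozygous arrays (SD, n = 2 each).

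The PAR complex held both the widest range between arrays, for Pard6g near the array median (3.57-fold), and the narrowest, for Cdc42. The scaffold of the complex, Pard3, had 8.37 and 5.85 on knockout arrays, against 5.70 and 9.97 on heterozygous arrays. Cdc42, the small GTPase that activates PAR6, had 146 and 122 on knockout arrays, against 122 and 162 on heterozygous arrays, and its highest array was 1.33 times its lowest, the narrowest range among the 30. The kinase genes Prkci and Prkcz encode atypical protein kinase C iota and zeta, related enzymes that both bind PAR6. Prkci had 51.6 and 17.4 on knockout arrays, against 17.2 and 40.7 on heterozygous arrays, so that knockout 1 was the highest array at 3.01 times the lowest. Prkcz had 9.24 and 16.4 on knockout arrays, against 13.6 and 22.1 on heterozygous arrays, so that knockout 1 was the lowest array and heterozygous 2 was 2.39 times as high. The pair thus shared a high signal on heterozygous 2 and lay at opposite ends on knockout 1. The log2 differences by label were 0.18 ± 0.67 for Prkci and −0.48 ± 0.57 for Prkcz (SE, limma), and a test of the difference between the genes was not made. Without knockout 1 the difference of Prkcz was −0.076.

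Other probe sets of the kinases also had knockout 1 at the same end. The second probe set of Prkci had 3.74 and 1.62 on knockout arrays, against 0.728 and 3.59 on heterozygous arrays. Of Prkcz, all 3 kept probe sets were lowest on knockout 1, the others at 2.36 and 2.83 against 3.27 and 3.03, and at 1.61 and 3.07 against 2.48 and 3.67, knockout before heterozygous. After quantile normalization, which gives every array the same distribution of log2 values, Prkci was still highest on knockout 1, at 5.45 and 4.39 on knockout arrays, against 4.42 and 5.06 on heterozygous arrays. Prkcz was still lowest there, at 3.02 and 4.31 on knockout arrays, against 4.09 and 4.19 on heterozygous arrays.

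PAR6 has 3 genes in the mouse, which encode adaptors between Cdc42 and the kinase. Pard6a and Pard6b had knockout 2 and heterozygous 1 lowest, and Pard6g did not. Pard6b had 22.7 and 9.10 on knockout arrays, against 9.68 and 16.6 on heterozygous arrays. It was highest on knockout 1, as was Prkci, and its second probe set had 18.1 and 6.38 against 6.19 and 17.3. Pard6a had 1.79 and 1.62 on knockout arrays, against 0.832 and 2.16 on heterozygous arrays, with heterozygous 1 apart from the rest. Pard6g had 0.842 and 1.09 on knockout arrays, against 3.01 and 1.85 on heterozygous arrays. It was the member with the largest difference, −1.07 ± 0.45 (SE) on the log2 scale, with an unadjusted p of 0.034 and an adjusted p of 0.999868 by limma. Averaged over its probe sets the difference was −0.62. Its only other probe set was too dim to be tested, and at 0.052 and 0.333 on knockout arrays, against 0.097 and 0.412 on heterozygous arrays, its groups overlapped.

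**Figure D2:**
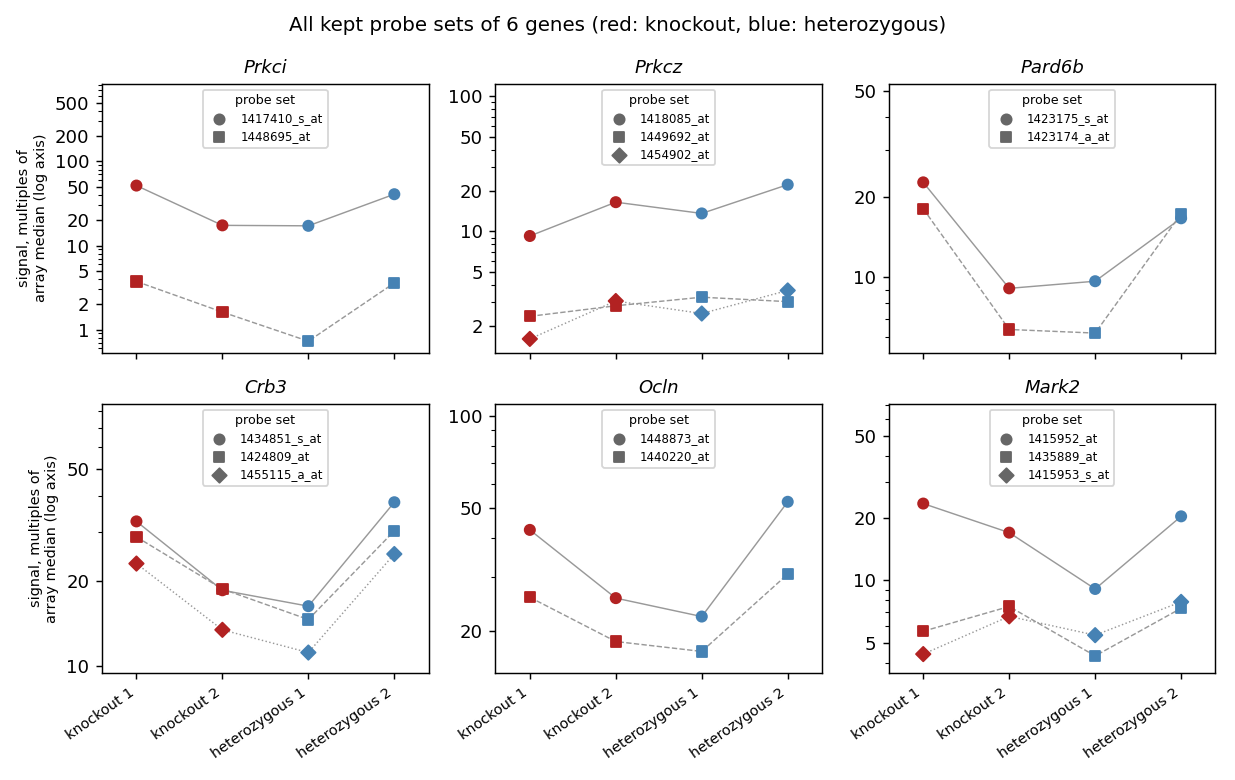
Signal of every tested probe set of Prkci, Prkcz, Pard6b, Crb3, Ocln and Mark2 (y axis, multiples of the array median, log scale) on the 4 arrays, knockout in red and heterozygous in blue. Each line joins the values of 1 probe set. Both probe sets of Prkci peak on knockout 1, all 3 of Prkcz are lowest there, and those of Mark2 disagree.

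Promoter windows from RefSeq (build GRCm38.p6, 250 bases before to 50 after an annotated start) were found for 25 of the 30 genes. They are shown for the PAR complex genes Prkci, Prkcz and Pard6b and for the apical and junctional genes Crb3, Ocln and Epcam. Knockout 1 was the highest array for Prkci and Pard6b and the lowest for Prkcz. All of them but Prkcz had knockout 2 and heterozygous 1 lowest. Where a gene had several windows, the most upstream is printed. Capitals mark each CAGGTG read on either strand (CACCTG on the printed one), the E-box core bound by the SNAI and ZEB repressors that switch off epithelial genes during epithelial-to-mesenchymal transition.
Prkci (chr3:30995521-30995820, plus strand): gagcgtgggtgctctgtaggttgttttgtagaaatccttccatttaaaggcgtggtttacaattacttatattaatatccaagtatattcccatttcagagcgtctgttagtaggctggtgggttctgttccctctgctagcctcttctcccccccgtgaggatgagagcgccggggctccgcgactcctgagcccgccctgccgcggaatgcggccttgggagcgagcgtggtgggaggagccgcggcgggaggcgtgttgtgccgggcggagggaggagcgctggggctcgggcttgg
Prkcz (chr4:155361379-155361678, minus strand): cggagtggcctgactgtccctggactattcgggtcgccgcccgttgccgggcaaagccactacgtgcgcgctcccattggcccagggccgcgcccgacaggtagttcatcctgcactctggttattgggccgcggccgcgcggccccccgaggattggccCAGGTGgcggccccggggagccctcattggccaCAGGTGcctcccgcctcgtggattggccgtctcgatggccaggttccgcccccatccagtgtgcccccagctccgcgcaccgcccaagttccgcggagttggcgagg
Pard6b (chr2:168080754-168081053, plus strand): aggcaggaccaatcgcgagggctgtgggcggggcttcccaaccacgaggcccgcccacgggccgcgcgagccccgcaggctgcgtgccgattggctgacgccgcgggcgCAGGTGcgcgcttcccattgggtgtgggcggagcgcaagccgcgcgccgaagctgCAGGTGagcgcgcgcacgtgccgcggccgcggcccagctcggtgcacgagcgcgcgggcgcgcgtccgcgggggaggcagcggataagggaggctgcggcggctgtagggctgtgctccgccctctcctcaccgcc
Crb3 (chr17:57061951-57062250, plus strand): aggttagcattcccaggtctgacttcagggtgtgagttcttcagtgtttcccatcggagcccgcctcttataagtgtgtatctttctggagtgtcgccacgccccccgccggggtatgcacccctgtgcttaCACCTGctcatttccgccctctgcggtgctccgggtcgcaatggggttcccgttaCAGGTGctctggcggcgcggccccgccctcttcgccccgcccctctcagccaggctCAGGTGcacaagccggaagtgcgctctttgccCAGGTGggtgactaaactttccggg
Ocln (chr13:100552669-100552968, minus strand): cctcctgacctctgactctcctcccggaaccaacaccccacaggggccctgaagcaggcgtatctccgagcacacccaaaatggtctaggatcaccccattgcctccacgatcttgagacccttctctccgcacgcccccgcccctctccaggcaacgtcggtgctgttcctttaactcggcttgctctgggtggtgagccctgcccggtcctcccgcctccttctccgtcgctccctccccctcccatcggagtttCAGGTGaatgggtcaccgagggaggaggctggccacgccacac
Epcam (chr17:87635729-87636028, plus strand): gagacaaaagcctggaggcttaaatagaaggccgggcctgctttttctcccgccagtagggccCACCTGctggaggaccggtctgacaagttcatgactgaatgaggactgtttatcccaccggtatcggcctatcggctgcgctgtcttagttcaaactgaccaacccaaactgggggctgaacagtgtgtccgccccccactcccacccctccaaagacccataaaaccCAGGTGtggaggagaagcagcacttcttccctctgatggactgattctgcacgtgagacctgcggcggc

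The E-box core was present in 2 copies in the windows of Prkcz, Pard6b and Epcam, in 4 copies in that of Crb3 and in 1 copy in that of Ocln, and Prkci had 0. Over any window of a gene, 14 of the 25 members (56.0%) held it, beside 22.6% of all 27025 genes with a window. Over the most upstream window alone the shares were 48.0% of members and 20.0% of all genes. The GC box GGGCGG, on either strand, was found in 22 of 25 members (88.0%) and in 38.2% of all genes. CCAAT, on either strand, was found in 13 of 25 (52.0%) and in 41.1% of all genes. Over the most upstream window alone its shares were 36.0% and 38.0%. GGAATG, the core read by the TEAD partners of YAP, was found in 3 of 25 (Prkci, Crb3 and Amotl2) and in 16.6% of all genes. The printed windows were 57.0% to 77.0% G and C, where the median window had 52.7%. The shares over all genes were not matched to the members for G and C content. These matches describe letters, not bound sites, and a link between the E-box core and the order of the arrays was not tested.

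In the Crumbs complex, 3 of 4 members were highest on heterozygous 2. Crb3 encodes the short transmembrane protein that anchors the complex in the apical membrane, and had 32.6 and 18.6 on knockout arrays, against 16.3 and 38.1 on heterozygous arrays. All 3 of its probe sets had heterozygous 1 lowest and heterozygous 2 highest. Mpp5 encodes PALS1, which binds the tail of Crumbs, and had 15.2 and 11.7 on knockout arrays, against 11.8 and 19.4 on heterozygous arrays. Its 3 probe sets had log2 differences of −0.18, −0.23 and −0.34. Inadl encodes PATJ, the multi-PDZ partner of PALS1, and had 20.2 and 16.7 on knockout arrays, against 14.7 and 29.8 on heterozygous arrays. A second probe set of Inadl, with 9.83 and 12.02 against 14.3 and 23.2, had groups that did not overlap and a log2 difference of −0.73 (adjusted p = 0.999868 by limma). Lin7c, encoding a small PDZ adaptor that binds PALS1, had 36.5 and 20.4 on knockout arrays, against 19.0 and 32.1 on heterozygous arrays.

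The angiomotins bind PATJ and hold the growth regulator YAP at junctions. Amot had 10.9 and 5.62 on knockout arrays, against 6.04 and 10.6 on heterozygous arrays. Amotl2 ran the other way, with 1.95 and 3.43 on knockout arrays, against 3.21 and 1.84 on heterozygous arrays. Its log2 difference by label was 0.079 ± 0.46 (SE). Amotl2 was the only member with knockout 2 as its highest array.

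All 4 genes of the Scribble complex had positive log2 differences, from 0.021 to 0.33, and none passed the test. Scrib, the scaffold of the basolateral complex, had 6.39 and 5.88 on knockout arrays, against 4.58 and 6.67 on heterozygous arrays. Dlg1, a membrane-associated guanylate kinase, had 20.6 and 9.51 on knockout arrays, against 10.3 and 16.3 on heterozygous arrays, and its second kept probe set had the same highest and lowest arrays. Llgl1 and Llgl2 encode the Lgl proteins that atypical protein kinase C removes from the apical cortex. Llgl1 had 14.0 and 9.41 on knockout arrays, against 8.22 and 10.0 on heterozygous arrays, and Llgl2 had 29.0 and 22.9 against 19.3 and 33.4. For Llgl1 the difference was 0.33 ± 0.53 (SE), less than the gap between the knockout arrays.

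Of the kinases that set the basolateral domain, Stk11 encodes LKB1, the upstream kinase of the MARK family, and had 11.95 and 7.43 on knockout arrays, against 8.23 and 12.3 on heterozygous arrays. Mark2 encodes PAR-1b, which phosphorylates PAR3 and keeps it off the basolateral membrane. It had 23.5 and 17.0 on knockout arrays, against 9.08 and 20.4 on heterozygous arrays, and a log2 difference of 0.54 ± 0.59 (SE), the highest of the 30. Heterozygous 1 stood below the other 3 arrays. The 2 other probe sets of Mark2 had log2 differences of 0.20 and −0.25, so the probe sets disagreed in sign.

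**Figure D3:**
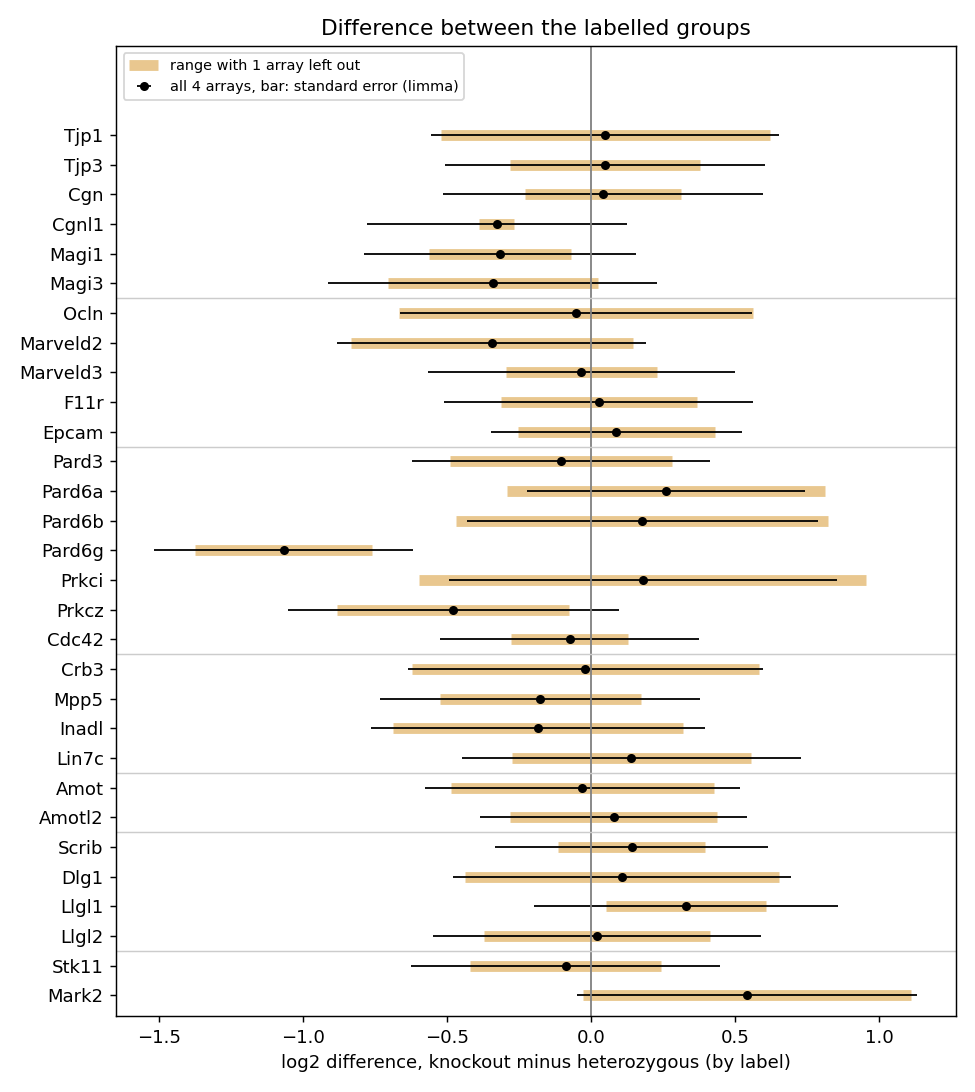
Log2 difference of each gene, knockout minus heterozygous by label (x axis), with limma's standard error as the black bar and the range of values with 1 array left out as the wide band. With 1 array left out, 25 of the 30 bands cross 0. The exceptions are Cgnl1, Magi1, Pard6g, Prkcz and Llgl1.

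The 2 arrays of each label differed from each other at many members. The knockout arrays differed by 1.5-fold or more at 14 members and the heterozygous arrays at 21. Knockout 1 was above knockout 2 at 27 of 30 members (median log2 difference 0.48), beside 67.7% of tested probe sets and 77.2% of the brightest 25%. Heterozygous 1 was above heterozygous 2 at 3 of 30 members (median −0.68), beside 24.7% of tested probe sets and 10.4% of the brightest 25%. Across labels, knockout 2 was above heterozygous 2 at 1 member, Amotl2 (median −0.65 over the members). The share was 24.8% over tested probe sets and 9.93% over the brightest 25%. Knockout 1 was above heterozygous 1 at 26 members (median 0.53), beside 68.8% of tested probe sets and 78.6% of the brightest 25%. The other pairings were closer, with medians of −0.10 for knockout 1 minus heterozygous 2 and 0.054 for knockout 2 minus heterozygous 1.

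In 26 members the 2 lowest arrays were knockout 2 and heterozygous 1, the arrays with the lower 75th percentile and the higher Ap1m2 signal, which was 22.3 on knockout 2 and 19.9 on heterozygous 1. The same order was seen in 52.7% of tested probe sets and in 70.0% of the brightest 25% of probe sets, to which 26 of the 30 members belonged. The members outside it were Cgnl1, Pard6g, Prkcz and Amotl2. After quantile normalization 13 members had this order, all of them among the 26, beside 28.4% of tested probe sets and 30.5% of the brightest 25%. On that scale the highest and lowest arrays differed by a median of 0.47 log2 units over the members, beside 0.71 over tested probe sets and 0.62 over the brightest 25%. Only Pard6g (1.68), Prkcz (1.29), Prkci (1.06) and Pard6a (1.06) reached 1 log2 unit, all 4 of the PAR complex, as did 29.1% of tested probe sets. Of these members, Pard6g and Pard6a had signals near the array median. Cgn (0.085), Cdc42 (0.16), F11r (0.21) and Llgl2 (0.21) varied least.

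**Figure D4:**
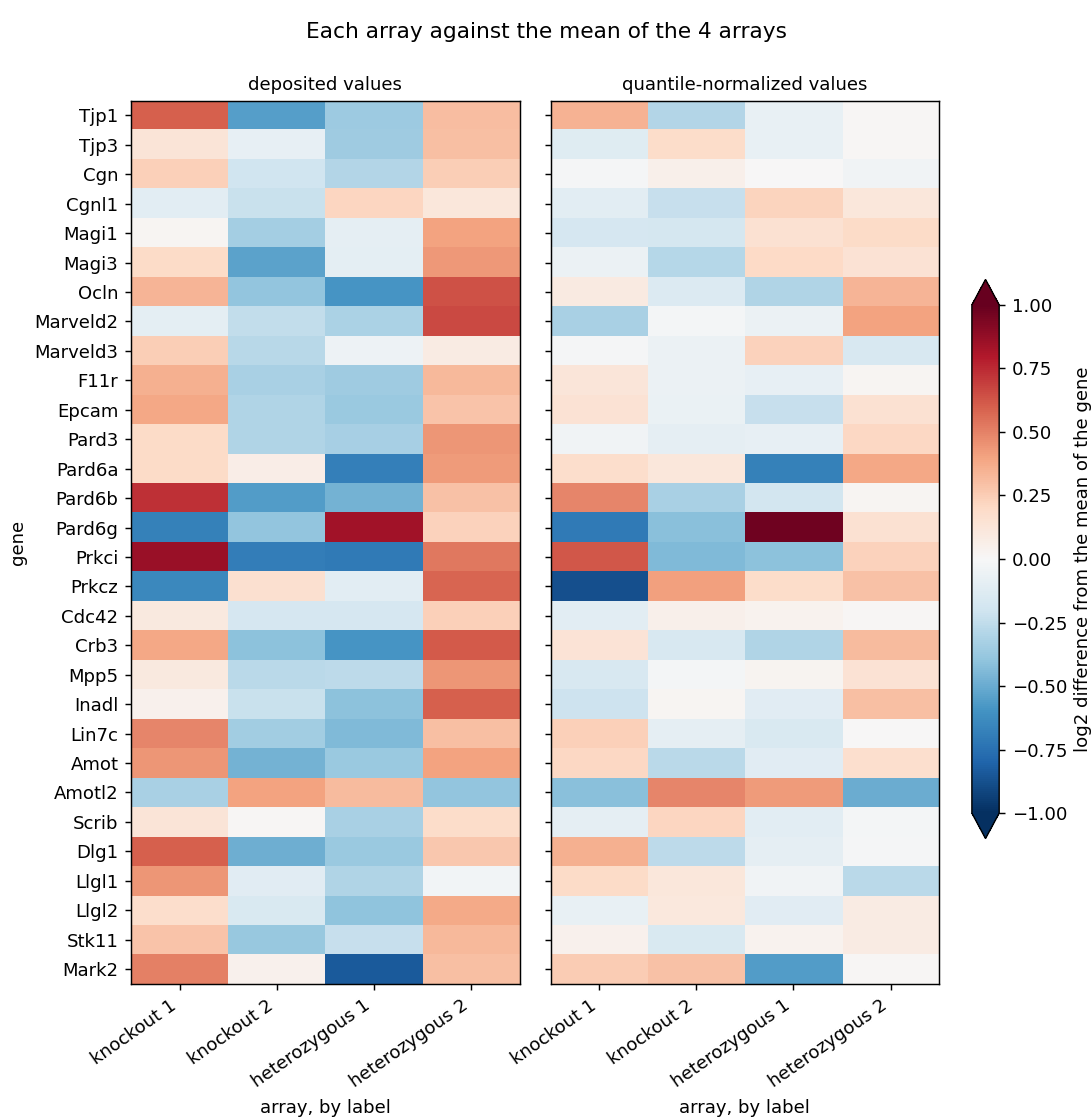
Each array's log2 value minus the mean of the gene over the 4 arrays (colour, log2 units), on deposited values at left and after quantile normalization at right, with the genes in the order of the plot of signals. On the left, knockout 1 and heterozygous 2 are mostly red and the others mostly blue. On the right most rows fade, and Prkci, Prkcz, Pard6a and Pard6g keep the widest range.

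Quantile normalization also changed which groups overlapped. Both knockout arrays were then above both heterozygous arrays for Llgl1 and Mark2, an order seen in 11.7% of tested probe sets, and below them for Cgnl1, Magi1, Magi3, Pard6g and Mpp5, an order seen in 11%. The adjusted threshold was still passed by 0 members. Among the 18 members with 2 or more kept probe sets, 11 had the same sign of the difference in each, and 8 had the same highest array in each. The chosen probe sets of 5 members, Magi1, Pard6b, Prkci, Cdc42 and Crb3, were of the type that can match more than 1 transcript (suffix _s_at), and their signal may include related transcripts.

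Of 72 other genes of these pathways, arranged in 6 lists, 66 had a probe set and 56 were tested. By limma 0 passed the adjusted threshold, 31 had positive and 25 negative log2 differences, and their median was 0.022. Groups did not overlap at 3 with knockout higher and 4 with knockout lower, orders seen in 6.56% and 10.7% of tested probe sets. In 41 of the 56 the 2 lowest arrays were knockout 2 and heterozygous 1. That order was seen in 52.7% of tested probe sets and in 70.0% of the brightest 25%.

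The other tight junction parts had a median log2 difference of −0.034 over 12 tested genes, 4 positive and 8 negative. Ybx3, the transcription factor ZONAB that binds ZO-1, had 179.7 and 51.2 on knockout arrays, against 55.1 and 77.9 on heterozygous arrays. Igsf5, encoding junctional adhesion molecule 4, had 60.3 and 29.6 on knockout arrays, against 31.8 and 69.7 on heterozygous arrays. Lsr, encoding angulin 1, which recruits tricellulin, had 59.2 and 36.3 against 28.5 and 66.4. Ybx3 stood out on knockout 1, while Igsf5 and Lsr were highest on heterozygous 2, as was Ocln.

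Other PAR and Crumbs genes had a median of 0.082 over 9 tested, 7 positive and 2 negative. Rac1, a GTPase that acts with Cdc42, had 213 and 161 on knockout arrays, against 158 and 217 on heterozygous arrays. Rhoa, the GTPase of actomyosin contraction, had 74.6 and 53.8 against 49.5 and 72.4, and Mpp6, a relative of PALS1, had 19.97 and 5.09 against 6.07 and 10.4. Mpp6 was highest on knockout 1 and lowest on knockout 2, like Pard6b. Other Scribble module genes had a median of 0.0016 over 8 tested, with 4 of either sign. Erbb2ip, encoding the Scribble relative erbin, had 49.5 and 45.1 on knockout arrays, against 52.5 and 64.7 on heterozygous arrays, groups that did not overlap. Dlg3, a relative of Dlg1, had 12.7 and 14.5 against 11.8 and 14.8, and Lrrc1, encoding the erbin relative LANO, had 8.99 and 7.56 against 7.68 and 10.9.

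The LKB1 and MARK pathway had a median of 0.028 over 11 tested genes, 6 positive and 5 negative. Ywhaz, a 14-3-3 protein that binds PAR3 after MARK2 phosphorylates it, had 174 and 113 on knockout arrays, against 120 and 184 on heterozygous arrays. Cab39, encoding the LKB1 partner MO25, had 48.5 and 37.3 against 35.3 and 49.3, and Prkaa2, a catalytic subunit of AMP-activated kinase, had 30.6 and 9.496 against 9.67 and 24.6. All 3 had knockout 2 and heterozygous 1 lowest, like most members. Hippo pathway genes had a median of 0.015 over 12 tested, 7 positive and 5 negative. On knockout 1, 9 of 12 were highest, beside 41.1% of tested probe sets. Yap1 had 34.2 and 18.2 on knockout arrays, against 18.6 and 25.5 on heterozygous arrays, Wwc1 (KIBRA) had 32.1 and 19.0 against 21.3 and 28.5, and the kinase gene Stk4 had 31.6 and 20.9 against 26.4 and 29.98. The 4 genes of EpCAM proteolysis had a median of 0.16, with 3 positive. St14, the protease matriptase that cleaves EpCAM, had 134 and 66.7 on knockout arrays, against 63.9 and 112 on heterozygous arrays. Its inhibitor genes Spint1 and Spint2 had 126 and 86.7 against 84.0 and 160, and 294 and 217 against 210.01 and 245.

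Markers of other cell types differed between the same arrays, and their part in the values above was not tested. The 10 T cell and intraepithelial lymphocyte markers summed to 14.3 on knockout 1 and 298 on knockout 2, against 490 on heterozygous 1 and 98.3 on heterozygous 2, the reverse of the order of most members. Among them Gzma had 5.79 and 149 on knockout arrays, against 244 and 53.8 on heterozygous arrays, and Ccl5 had 2.01 and 61.8 against 93.2 and 13.3. All 9 proliferation markers were highest on knockout 1, with sums of 462 and 160 on knockout arrays, against 155 and 248 on heterozygous arrays. Prkci and Pard6b were also highest on knockout 1, as were 11 of the 30 members in all and 41.1% of tested probe sets. Among the proliferation markers Pcna had 197 and 70.4 against 74.0 and 121, and Mcm6 had 33.9 and 18.3 against 16.1 and 21.4.

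Enterocyte markers summed to 3955 and 3564 on knockout arrays, against 4340 and 4020.0 on heterozygous arrays, and all 9 tested had negative log2 differences. The sum rests on the brightest of them, and Lct and Anpep, given above, were far lower on knockout 1 than on the other 3 arrays. Endothelial and stromal cells also express Cgnl1, Amotl2 and other junction genes. The 8 endothelial markers summed to 5.06 and 6.56 on knockout arrays, against 8.81 and 5.07 on heterozygous arrays, with Pecam1 at most at 0.238 and 4 of 8 tested. Their brightest, Tek and Plvap, had 1.08 and 0.433 against 2.42 and 1.14, and 0.660 and 1.20 against 2.51 and 0.511. Both had negative log2 differences, while the other 2 tested, Kdr and Cldn5, had positive ones. Kdr had 1.42 and 1.76 against 0.467 and 1.09, with heterozygous 1 lowest. The 8 stromal and muscle markers summed to 25.2 and 23.2 on knockout arrays, against 18.7 and 16.3 on heterozygous arrays, with Acta2 at 9.66 and 10.1 against 5.91 and 6.39 and Col3a1 at 6.08 and 3.52 against 5.28 and 4.19.

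The remaining lists were also read as sums, knockout before heterozygous. The 8 myeloid markers had 30.2 and 46.2 against 101 and 33.2, with Lyz2 at 20.8 and 15.6 against 42.0 and 18.1 and Csf1r at 3.89 and 8.19 against 22.7 and 3.26. The 6 B and plasma cell markers had 275 and 247 against 626 and 245, with Igha at 237 and 199 against 413 and 204 and Jchain at 34.1 and 39.6 against 205 and 34.9. Both sums were highest on heterozygous 1. By gene, 3 of the 6 B and plasma cell markers were highest there, Igha, Jchain and Mzb1. The B cell markers Cd79a and Ms4a1 were highest on knockout 2, and Cd79b on knockout 1. The 6 pancreatic acinar markers had 30.2 and 89.1 against 9.59 and 33.3, with Cela1 at 27.7 and 19.8 against 8.63 and 21.8 and Cela2a at 0.082 and 24.5 against 0.120 and 3.49. The 6 goblet markers had 1191 and 999 against 1220 and 1317, with Tff3 at 402 and 347 against 433 and 391.8 and Clca1 at 226 and 253 against 332 and 321. Goblet sums stayed close, while the acinar sum was highest on knockout 2. By gene, 2 of the 6 goblet markers were highest on knockout 1, 2 on heterozygous 1 and 2 on heterozygous 2. Those highest on knockout 1, Agr2 (172 and 54.0 against 55.3 and 120) and Spdef, had knockout 2 and heterozygous 1 lowest. The 4 Paneth markers had 485 and 203 against 671 and 317, with Lyz1 at 381 and 150.1 against 512 and 248 and Itln1 at 79.8 and 40.5 against 114 and 53.4. The 7 enteroendocrine markers had 146 and 168 against 212 and 224, with Chgb at 68.2 and 53.9 against 83.1 and 87.2 and Gip at 31.4 and 66.9 against 71.5 and 57.1. The 5 tuft markers had 8.62 and 12.3 against 17.5 and 10.7, with Avil at 3.98 and 4.07 against 8.19 and 4.42 and Dclk1 at 2.14 and 3.22 against 3.83 and 2.73. None of these sums had knockout 2 and heterozygous 1 as the 2 lowest arrays.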

How the data were processed

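Total RNA from 4 preparations was labelled with biotin and hybridised to 1-colour arrays, per the labels' protocols. The deposited table gives an intensity, on a linear scale, for every probe set of each array. MAS5 was used, per the submitters' processing notes, with no version named there. Array medians near 1 show a rescaling that no label states.

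The platform annotation assigned 34945 probe sets to 1 gene, 932 to several genes and 9160 to none. Probe sets of several genes were not used for names, and 34741 Entrez identifiers of the 1-gene probe sets were found in the RefSeq table of GRCm38.p6. Values were transformed as log2(value + 0.321), the 25th percentile of all values. A probe set was kept when its mean over the arrays was at least 0.983, the median mean of all probe sets. The comparison by label used limma 3.58.1 under R 4.3.3 (lmFit, eBayes with an intensity trend) and Benjamini-Hochberg adjustment over the 22519 kept. The script was tested on simulated data before use. With 2 arrays a group, the smallest p an exact two-sided permutation test allows is 0.333, so none was run.

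The members and lists were chosen with earlier results of these data known. All members are named. Of every other pathway list the 3 genes, and of every cell marker list the 2 genes, with the highest mean over the 4 arrays are named. Others are named only where groups or order are described, chosen after their values were seen, among them Lct and Anpep. Same-numbered arrays did not deviate together (correlation of deviations from the group means −0.51), so the number was not used as a pairing. Settings varied were the pseudocount, filter, scaling, variance prior, replicate block, threshold, averaging the probe sets of a gene, and leaving out each array.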

Additional observations from a re-analysis of the deposited data

How the results depend on the processing

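No member passed the adjusted threshold under any alternative run. Over all probe sets the count of 0 held except with only the brightest 25% tested, where 1 passed, and with 1 array left out, where the count ran from 0 to 240 (24 without knockout 1, 240 without knockout 2, 0 without either heterozygous array). With a knockout array left out, that group is a lone array assumed to vary like the heterozygous pair. The replicate block gave 0 calls and changed no other call, and a block of crossed pairs, added after seeing the data, gave 0 as well. Members whose groups did not overlap numbered 2, but 0 among the 26 that passed the brightness filter, 7 under quantile normalization, 7 under median centring and 4 when the probe sets of each gene were averaged, and the cause was not tested. With 1 array left out they ran from 13 to 19, where fewer arrays make overlap rarer by construction.

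Averaging probe sets turned the log2 difference of Cgn (−0.059), Cgnl1 (0.22), Marveld3 (0.11), F11r (−0.027), Crb3 (0.065), Dlg1 (−0.027) and Stk11 (0.48), and median centring turned F11r (−0.00018) and Llgl2 (−0.0049). The averages took in probe sets that failed the filter on dim probe sets. Apart from the chosen probe set, those of Cgnl1, F11r and Stk11 were all too dim to be tested. The kept probe sets of Marveld3, and those of Dlg1, shared a sign. With 1 array left out, 25 of 30 members turned sign. The ranges were Tjp1 −0.52 to 0.62, Tjp3 −0.28 to 0.38, Cgn −0.23 to 0.31, Magi3 −0.71 to 0.023, Ocln −0.67 to 0.56, Marveld2 −0.83 to 0.15, Marveld3 −0.30 to 0.23, F11r −0.31 to 0.37, Epcam −0.25 to 0.43, Pard3 −0.49 to 0.28, Pard6a −0.29 to 0.81, Pard6b −0.47 to 0.82 and Prkci −0.60 to 0.96. For the rest they were Cdc42 −0.28 to 0.13, Crb3 −0.62 to 0.58, Mpp5 −0.53 to 0.17, Inadl −0.69 to 0.32, Lin7c −0.28 to 0.56, Amot −0.49 to 0.43, Amotl2 −0.28 to 0.44, Scrib −0.12 to 0.40, Dlg1 −0.44 to 0.65, Llgl2 −0.37 to 0.41, Stk11 −0.42 to 0.24 and Mark2 −0.028 to 1.11. The 5 that kept their sign were Cgnl1 (−0.39 to −0.27), Magi1 (−0.56 to −0.071), Pard6g (−1.37 to −0.76), Prkcz (−0.88 to −0.076) and Llgl1 (0.052 to 0.61), and groups that do not overlap fix the sign for Cgnl1 and Pard6g. Averaging probe sets gave −0.62 for Pard6g and −0.13 for Magi1. The median over the members ran from −0.34 to 0.36. Signals near the array median, as for Cgnl1, Pard6a and Pard6g, lie close to the pseudocount, which shrinks their log2 differences. None of these members passed the test, so larger true differences are not shown.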
